A study of Mus musculus with 12 samples.

Results

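Liver RNA collected 12 h after partial hepatectomy was compared with liver RNA collected 1.5 h after it. Partial hepatectomy is the surgical removal of 2/3 of the liver, after which the remnant regrows. The 2 groups are chosen by the time point in the sample titles: 3 samples at 12 h and 3 at 1.5 h, 6 of the 12 samples of the series. The others were taken at 0 h (3 samples) and 24 h (3 samples). All samples are fresh liver of male wild-type C57BL/6 mice, 6 weeks old, that had the same operation, with 3 mice per time point per the labels. The series holds no sham operation, so loss of liver mass and the effects of surgery and anaesthesia cannot be told apart. Clock time of collection is not given in the labels, and hours since surgery and hour of the day cannot be told apart either. Total RNA was hybridised to a 1-colour Agilent array built for long noncoding RNAs that also carries probes for messenger RNAs. All 31168 probes that were well above background on at least 3 of the 12 arrays entered the comparison, 19894 for coding transcripts and 11274 for noncoding ones. Each value is a log2 signal relative to the 75th percentile of its own array, so a value of 0 is a signal at that percentile. Levels of different probes are not compared with each other.

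Regrowth of the rodent liver starts with a priming phase. Within the first hours, immediate early genes of the AP-1, ATF and NR4A families are switched on without new protein synthesis, and cytokines such as interleukin-6 reach the hepatocytes, where they activate the transcription factor STAT3. Growth factors such as HGF then carry hepatocytes through G1 towards DNA synthesis, while the remnant keeps up the work of a whole liver. The acute phase response, in which hepatocytes raise the secretion of defence and clotting proteins, runs during the same hours.

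The 75th percentile of intensity lay between 428.5 and 583.7 on 11 arrays and at 6018.3 on the 24 h replicate 2 array, which enters the comparison through the shared estimate of the spread. Arrays whose headers share 1 scan are called a slide here. Slide 2 held both groups: replicates 2 and 3 of 1.5 h and replicates 1 and 2 of 12 h. The 1.5 h replicate 1 array was on slide 1 with the 0 h arrays, and the 12 h replicate 3 array on slide 3 with 24 h arrays. Between 82% and 85.4% of spots were well above background on slide 2, against 68.2% for 1.5 h replicate 1 and 63.6% for 12 h replicate 3. Each result was therefore also read within slide 2, 2 arrays against 2. The difference there comes from these arrays alone. Its p-value takes the spread from a fit to all 12 arrays, with 1 mean per time point on each slide. An array alone in its time point and slide, such as 24 h replicate 2, adds nothing to that spread. All 19 measured genes for proteins that hepatocytes secrete, among them albumin, were well above background on all 6 arrays, as the tissue label says. In bulk tissue, fewer cells of a type and less RNA per cell cannot be told apart.

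By 12 h, most acute phase genes (21 of 26), some chaperones of the endoplasmic reticulum (6 of 17) and some chemokines had higher signals than at 1.5 h. Most fatty acid synthesis genes (13 of 18), 12 of 24 cholesterol genes, 9 of 18 bile acid genes, 10 of 19 clock genes and part of the immediate early response had lower ones. In limma's moderated test with Benjamini-Hochberg adjustment over all probes, 2596 probes passed the threshold of 0.05 (8.33%). Of these, 1037 were higher at 12 h (3.33% of all tested) and 1559 lower (5%). The median fold of the probes that passed was 3.05, and 2399 of them differed at least 2-fold. The 3 arrays of a group did not overlap those of the other for any of the 2596. Such separation was found for 36.5% of all probes. For the 2596, this separation fixes the same direction within slide 2, whose arrays are part of these groups. Of them, 2411 passed within slide 2 too, where 4695 probes passed (15.1%). The count moved with single arrays: 6265 probes passed without the 24 h replicate 2 array (20.1%), among them all 2596. Leaving out 1 of the compared arrays gave 1251, 1344 and 1376 for replicates 1, 2 and 3 of 1.5 h, and 1311, 1783 and 1346 for those of 12 h. These fits, also used for single genes and lists below, kept the 24 h replicate 2 array in the shared spread. Whether a call lost in them hangs on the array left out or on that spread was not tested. With another background correction (normexp) 495 passed, 116 higher and 379 lower. Gene lists are read below on the brightest probe of each of 16824 named coding genes, of which 675 were higher (4.01%) and 1048 lower (6.23%).

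**Figure D1:**
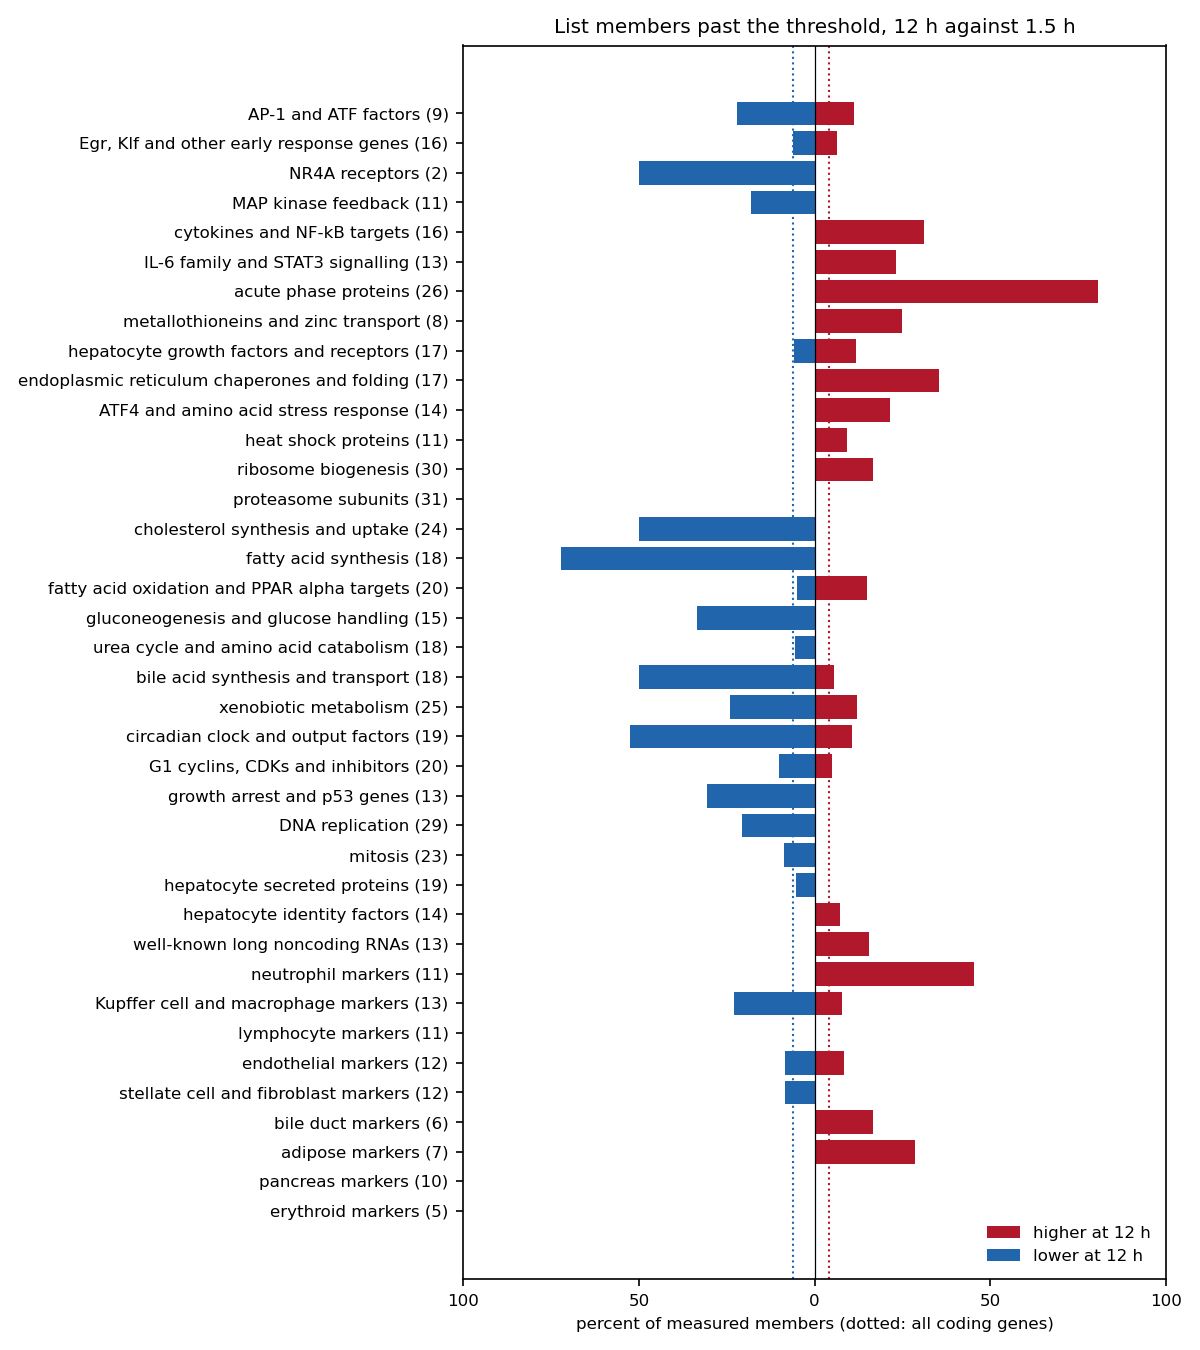
Bars show the percent of measured members of 38 gene lists that passed the threshold, red to the right for higher at 12 h and blue to the left for lower, with the number measured in brackets. Dotted lines mark the shares among all named coding genes, 4.01% and 6.23%; acute phase proteins reach farthest to the right and fatty acid synthesis farthest to the left.

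Acute phase proteins had the highest share of rises of the 38 lists. Of 26 measured members 21 rose and 0 fell, against 4.01% and 6.23% of all coding genes, and the log2 fold changes of the list had a median of 2.91, where coding genes had 0.11. Within slide 2 the median was 3.01 and 23 members were higher, where 8.27% of coding genes were. A2m encodes alpha-2-macroglobulin, a broad protease inhibitor of plasma. Its log2 signals were -6.00, -4.69 and -4.71 at 1.5 h and 4.82, 5.10 and 5.41 at 12 h. The probe went from near background, with 2 of 3 arrays well above it at 1.5 h, to bright on every array, a difference of 10.25 ± 0.53 (SE, n = 3 per group; limma adjusted p = 1.396e-05). Reg3g, a secreted antibacterial lectin, read -6.62, -5.57 and -5.33 at 1.5 h and 3.29, 2.67 and 3.17 at 12 h. It was likewise well above background on 2 of 3 arrays at 1.5 h, and it rose by 8.88 ± 0.41 on the log2 scale (limma adjusted p = 7.646e-06).

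Lcn2, which encodes lipocalin-2, a protein that withholds iron from bacteria, had signals of 1.58, -0.18 and 0.21 at 1.5 h. At 12 h they were 8.44, 8.22 and 8.19, a 214.4-fold rise (log2 7.74 ± 0.57, limma adjusted p = 7.482e-05). The highest array at 1.5 h was replicate 1, and all arrays at 12 h lay far above it. Steap4, a metalloreductase, rose 26.57-fold from 2.84, 2.67 and 2.82 to 8.30, 6.70 and 7.53. Cd14, the lipopolysaccharide co-receptor, rose 26.07-fold from 1.15, 0.37 and 0.82 to 6.15, 4.76 and 5.53. In both genes 12 h replicate 2 was the lowest of its group and still above every array at 1.5 h.

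Leaving out 1 compared array left 17 to 20 of the 26 higher, and normexp 14. Serum amyloid A and fibrinogen genes passed in part. Saa2 rose 21.71-fold, Saa3 20.33-fold and Saa1 6.996-fold, whereas Saa4 differed by 0.48 ± 0.36 on the log2 scale (limma adjusted p = 0.6008). Saa1 and Saa2 are close copies, and their probes may share signal. Fga and Fgb, the alpha and beta chains of fibrinogen, rose 8.029-fold and 4.337-fold, and the gamma chain gene Fgg differed by 1.30 ± 0.45 (limma adjusted p = 0.1183; 0.002346 within slide 2). Haptoglobin, Hp, differed by 0.78 ± 0.46 (limma adjusted p = 0.4373). Hp was already bright at 1.5 h, at 8.41, 8.52 and 8.49. Hamp, the gene of the iron hormone hepcidin, was 3.585-fold higher at 12 h (limma adjusted p = 0.04654) but did not pass within slide 2 (adjusted p = 0.12).

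**Figure D2:**
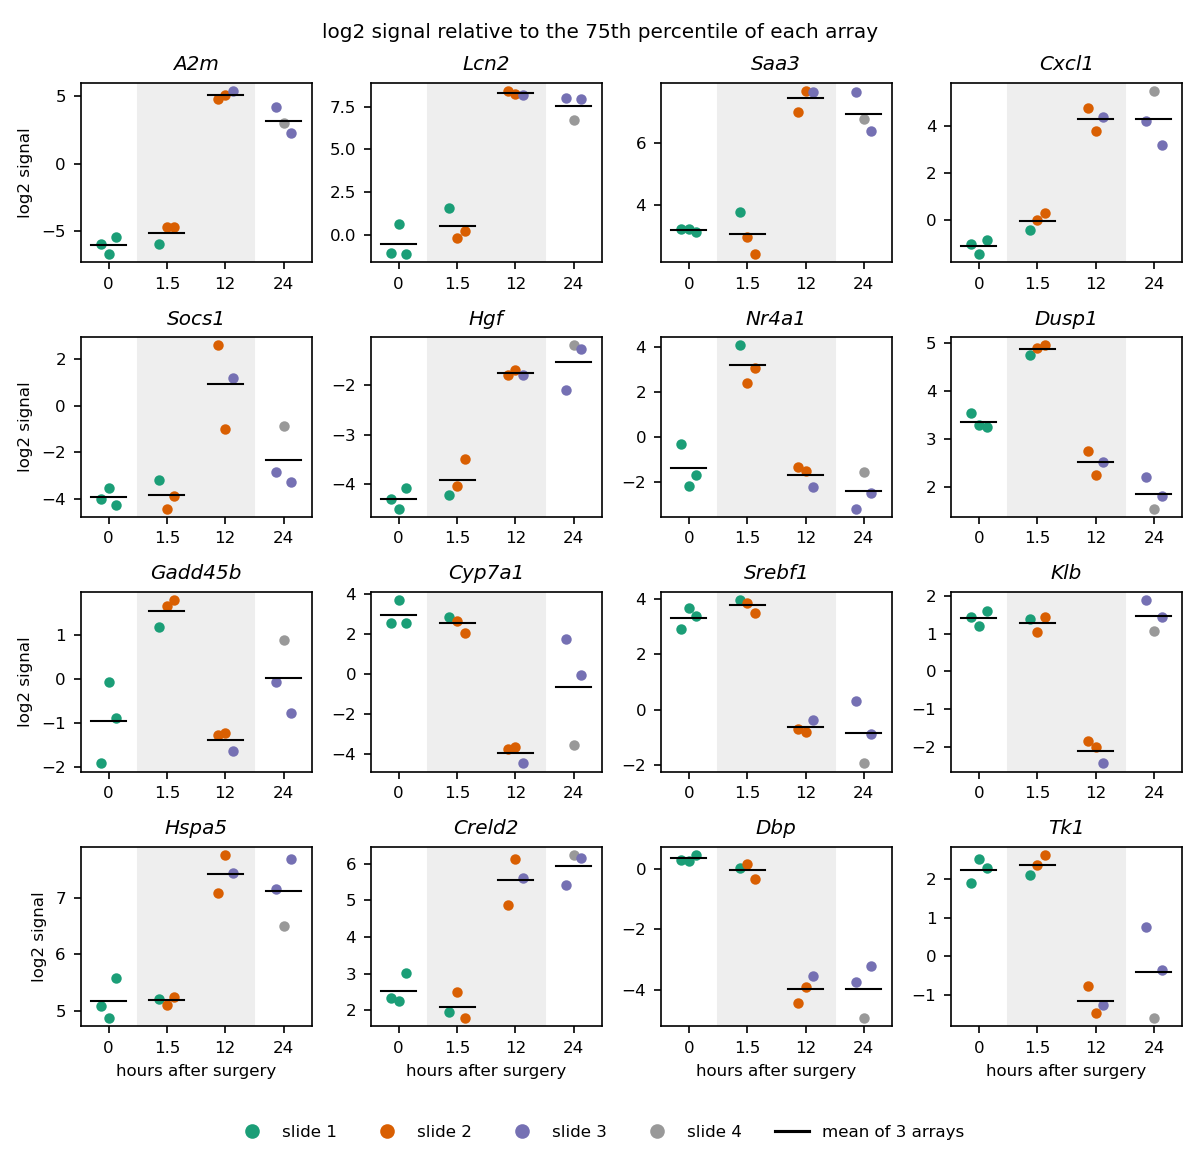
Log2 signal relative to the array's 75th percentile (vertical axis) is plotted against hours after surgery for 16 genes, with 1 point per array coloured by slide and a line at the mean of 3 arrays; the grey band holds the groups compared. A2m, Lcn2, Saa3 and Cxcl1 are high at 12 h, Nr4a1, Dusp1 and Gadd45b are high at 1.5 h, and Cyp7a1, Srebf1, Klb and Dbp drop between these times.

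STAT3 binds a short palindrome, and the letters TTCNNNGAA (the same on both strands) were searched in RefSeq promoter windows, from 250 bases before to 50 after a gene's start (GRCm38.p6). They occurred in 6 of 23 windows of acute phase genes (20 of 26 members matched) and in 8.3% of all 32851 windows. The AP-1 letters, TGANTCA, occurred in as many windows of these genes, 6 of 23, and in 7.81% of all windows. The 6 genes with the STAT3 letters were Fga, Fgb, Itih4, Apcs, Steap4 and Hamp, each of which rose. So did 5 of the 6 genes with the AP-1 letters, and 16 of all 20 matched members. Stretches of 3 windows are shown, with the match in capitals, for a fibrinogen chain, a protease inhibitor heavy chain and a reductase of the list.
Fga (chr3:83025903-83025957, plus strand): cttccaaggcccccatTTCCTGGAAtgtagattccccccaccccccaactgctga
Itih4 (chr14:30886395-30886463, plus strand): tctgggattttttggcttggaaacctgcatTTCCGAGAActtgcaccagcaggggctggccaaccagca
Steap4 (chr5:7960326-7960394, plus strand): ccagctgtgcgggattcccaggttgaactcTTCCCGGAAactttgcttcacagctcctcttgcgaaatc
A match describes these letters and no binding was measured. No match of another searched motif shared bases with those printed here or below.

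Parts of the interleukin-6 and STAT3 pathway rose. Of 13 measured members 3 rose and 0 fell on the brightest probe, with a list median of 0.65. Lifr has 2 probes, and 1 of them, not the brightest, passed as lower (-1.43 and -1.30). Socs1, a feedback inhibitor of JAK kinases, read -3.21, -4.43 and -3.88 at 1.5 h and 2.60, -1.02 and 1.19 at 12 h. The arrays at 12 h spread widely but lay above all at 1.5 h, and the difference was 4.77 ± 0.84 (limma adjusted p = 0.005834). Osmr, the receptor subunit for oncostatin M, rose 6.446-fold from -1.19, -1.20 and -0.75 to 1.72, 1.46 and 1.74. Stat3 itself rose 2.947-fold, from 2.26, 1.67 and 1.95 to 3.84, 3.06 and 3.66. Socs3, the usual STAT3 feedback gene, read 2.82, 2.13 and 3.38 at 1.5 h and 5.51, 3.62 and 4.54 at 12 h and did not pass (1.78 ± 0.59, limma adjusted p = 0.09813). The signal of Il6 overlapped between the groups, at 0.68, 0.08 and -2.09 against 2.07, -0.31 and 1.05.

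Among 16 cytokines and NF-kB targets 5 rose and 0 fell. Cxcl1, a chemokine that draws neutrophils, read -0.42, 0.01 and 0.30 at 1.5 h and 4.77, 3.79 and 4.37 at 12 h, a 20.36-fold rise (log2 4.35 ± 0.51, limma adjusted p = 0.0007776). Bcl3, an atypical IkB protein that works in the nucleus, rose 7.589-fold, and the adhesion molecule Icam1 3.157-fold. The chemokines Ccl2 and Cxcl2 rose 2.572-fold and 2.248-fold. Tnf differed by 0.94 ± 0.35 and Il1b by -0.82 ± 0.38, and neither passed (limma adjusted p = 0.1452 and 0.2794). With any 1 compared array left out, 2 or 3 of the 16 were higher.

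Neutrophil markers moved with these chemokines. Of 11 measured, 5 rose and 0 fell (1 rose under normexp). The summed linear signal of the list, in units of the array's 75th percentile, was 11.1 to 13.9 at 1.5 h and 37.3 to 46.3 at 12 h. Most of the sum at 12 h came from S100a9 and S100a8, so it does not speak for the other members. S100a9, a subunit of calprotectin, read 2.77, 2.16 and 2.67 at 1.5 h and 4.61, 4.42 and 4.48 at 12 h (3.926-fold). Ngp, a granule protein of immature neutrophils, rose 19.14-fold, and Mmp8, the neutrophil collagenase, was well above background on no array at 1.5 h and was at least 7.477-fold higher at 12 h. Mpo, Elane, Csf3r and Cxcr2 differed by 0.14, 0.04, -0.37 and 0.30 on the log2 scale and did not pass. The part of these cells in the rises of Lcn2, Cd14 and Cxcl1, which neutrophils can also express, was not tested.

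Other resident cells showed mixed values, to be read against the 4.01% of all coding genes that rose and the 6.23% that fell. Of 13 Kupffer cell and macrophage markers, 3 fell and 1 rose, and their summed signal was 61.9 to 104 at 1.5 h and 44.6 to 66.5 at 12 h. Csf1r, the receptor for macrophage colony-stimulating factor, fell 2.791-fold and Vsig4 2.417-fold, while the scavenger receptor Marco rose 3.555-fold. Adgre1, a surface receptor of macrophages, fell 2.902-fold in the 3 against 3 comparison but did not pass within slide 2 (adjusted p = 0.0811). The 3 falls were close to the threshold: 0 of the 13 were lower when any 1 of the 6 compared arrays was left out. The rise of Marco was close to it too (limma adjusted p = 0.04396), and 0 or 1 of the 13 were higher in those fits. Under normexp 0 were higher and 1 lower. In the endothelial list 1 of 12 members rose, Lyve1 (7.969-fold, from -0.10, -1.35 and -0.86 to 2.45, 1.80 and 2.43), and 1 fell, Kdr (3.739-fold), which passed in 1 of the 6 fits that left out a compared array. Both encode receptors of the sinusoidal lining, the first for hyaluronan and the second for VEGF. Lrat, which stores retinol in stellate cells, was the 1 of 12 stellate and fibroblast markers to fall, and it did not pass within slide 2 (adjusted p = 0.077) or in 5 of the 6 fits that left out a compared array. Of 6 bile duct markers Sox9, a transcription factor of the duct lineage, rose 3.498-fold, from -2.48, -2.19 and -1.66 to -0.32, -0.23 and -0.36. None of 11 lymphocyte, 10 pancreas and 5 erythroid markers passed limma's test at an adjusted p of 0.05.

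Of 7 adipose markers 2 rose and 0 fell. Cidec, a droplet protein of adipocytes and fatty liver, read 0.15, -2.13 and -0.46 at 1.5 h and 3.71, 3.96 and 4.26 at 12 h (27.65-fold, limma adjusted p = 0.01891), and kept its call in 1 of the 6 fits that left out a compared array. Fabp4, a fatty acid carrier of adipocytes and macrophages, rose 7.322-fold. The summed signal of the list was 0.85 to 1.76 at 1.5 h and 17.6 to 21.8 at 12 h. Most of the sum at 12 h came from Cidec, so it does not speak for the other members. Adipoq and Lep, which define adipocytes, differed by -0.16 and 0.60 and did not pass.

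Growth factor and receptor genes changed in part. Of 17 measured, 2 rose and 1 fell, where 4.01% of all coding genes rose and 6.23% fell. Ghr is not among these, but 1 of its 2 probes, not the brightest, passed as lower (-1.57 and -0.37). Hgf, the hepatocyte mitogen made by non-parenchymal cells, rose 4.438-fold, from -4.22, -4.04 and -3.48 to -1.80, -1.69 and -1.80 (log2 2.15 ± 0.30, limma adjusted p = 0.001944). The arrays at 12 h lay close together, above all those at 1.5 h. Igfbp3, a carrier of insulin-like growth factors, rose 2.434-fold and lost its call in 3 of the 6 fits that left out a compared array (1.5 h replicates 2 and 3 and 12 h replicate 3). Neither rise passed under normexp. Igfals, which stabilises that carrier complex in plasma, fell 12.28-fold, from 2.57, 3.46 and 3.31 to -0.07, -0.45 and -1.0. Met, the receptor of HGF, differed by -0.79 ± 0.22 (limma adjusted p = 0.05508).

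Immediate early genes split by member. Nr4a1, an orphan nuclear receptor induced within an hour of many stimuli, read 4.08, 2.39 and 3.09 at 1.5 h and -1.36, -1.53 and -2.22 at 12 h. This 29.67-fold fall (log2 -4.89 ± 0.59, limma adjusted p = 0.0008935) ended near the mean of -1.40 at 0 h. Of 9 AP-1 and ATF factors 2 fell and 1 rose. Atf3, a stress-induced repressor, fell 5.054-fold from 3.72, 3.74 and 3.79 to 1.18, 1.75 and 1.31, and the small Maf protein Maff fell 5.754-fold. Of the fits that left out 1 compared array, Maff passed only in that without 1.5 h replicate 2. Fosl1, also called Fra-1, was well above background on no array at 1.5 h and was at least 3.814-fold higher at 12 h, though by 1.23 on the log2 scale and short of the threshold under normexp. Jun read 3.60, 2.70 and 2.56 against 0.73, 1.15 and 0.56 and narrowly missed the threshold (limma adjusted p = 0.05056, and 0.005453 within slide 2). Junb overlapped between the groups, at 4.67, 4.17 and 4.25 against 5.07, 3.87 and 4.26. The other early response genes gave 1 rise and 1 fall among 16, near the 4.01% and 6.23% of all coding genes. Ier3, an anti-apoptotic early gene, rose 7.619-fold, and Myc, which drives growth and ribosome synthesis, fell 2.803-fold from 1.90, 1.35 and 1.61 to 0.17, -0.10 and 0.34. Myc lost its call when any 1 compared array was left out. Egr1 overlapped between the groups.

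The phosphatases that switch MAP kinases off gave 2 falls among 11 feedback genes. Dusp1 read 4.74, 4.89 and 4.94 at 1.5 h and 2.75, 2.25 and 2.51 at 12 h (5.11-fold lower, limma adjusted p = 0.0004733). Dusp6, which acts on ERK, fell 5.287-fold. In both genes the arrays of a group lay close together and the groups far apart. Of the 13 growth arrest and p53 genes 4 fell and 0 rose. Gadd45b, a stress sensor that acts on MAP kinase cascades, read 1.17, 1.66 and 1.79 at 1.5 h and -1.29, -1.23 and -1.64 at 12 h (7.612-fold lower). Trp53inp1 and Sesn1, both p53 targets, fell 3.841-fold and 2.546-fold, and the kinase Plk3 3.307-fold. With 1 compared array left out, 1 to 3 of the 13 fell.

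The cyclic AMP response element, TGACGTCA (the same on both strands), was found in windows of Dusp1 and Maff, and in 1.79% of all windows. In all it was in 2 of 9 windows of the MAP kinase feedback list and 1 of 10 of the AP-1 and ATF list. Members of some other lists also held it. The other feedback gene with the element was Dusp8, whose signal differed by 0.14 and did not pass. The stretches of Dusp1 and Maff are shown, match in capitals.
Dusp1 (chr17:26508578-26508645, minus strand): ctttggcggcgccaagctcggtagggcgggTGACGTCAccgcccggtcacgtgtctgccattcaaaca
Maff (chr15:79347461-79347519, plus strand): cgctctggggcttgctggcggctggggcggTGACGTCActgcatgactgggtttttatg

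Chaperones of the endoplasmic reticulum, where secreted proteins fold, were higher at 12 h. Of 17 measured, 6 rose and 0 fell, with a list median of 0.72. Creld2, a disulphide isomerase-like protein, read 1.95, 2.51 and 1.79 at 1.5 h and 4.88, 6.13 and 5.62 at 12 h, an 11.01-fold rise (log2 3.46 ± 0.39, limma adjusted p = 0.000654). Sdf2l1 and Dnajb9, partners of the chaperone BiP, rose 5.601-fold and 5.318-fold. Hspa5, which encodes BiP, read 5.21, 5.11 and 5.25 at 1.5 h and 7.08, 7.76 and 7.44 at 12 h (4.715-fold). The arrays at 1.5 h lay close together and all arrays at 12 h were well above them. Xbp1, the transcription factor of the unfolded protein response, rose 3.359-fold, and Hsp90b1, the chaperone GRP94, 2.417-fold. Calr, Canx and Pdia6 differed by 0.72, -0.39 and -0.58 and did not pass. With 1 compared array left out 4 or 5 of the 17 rose, and 1 did under normexp.

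The endoplasmic reticulum stress element, CCAAT and CCACG with any 9 bases between them on either strand, was found in the windows of 7 of 16 matched members and in 0.119% of all windows. The 7 were Hspa5, Hsp90b1 and Creld2, which rose, and Calr, Canx, Pdia6 and Dnajc3, which did not pass. Windows of 3 that rose are shown with the match in capitals, and in Creld2 it lies on the other strand.
Hspa5 (chr2:34771995-34772073, plus strand): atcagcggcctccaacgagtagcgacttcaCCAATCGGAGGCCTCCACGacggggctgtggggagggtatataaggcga
Creld2 (chr15:88819490-88819568, plus strand): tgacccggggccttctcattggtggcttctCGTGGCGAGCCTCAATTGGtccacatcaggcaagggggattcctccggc
Hsp90b1 (chr10:86705503-86705686, minus strand): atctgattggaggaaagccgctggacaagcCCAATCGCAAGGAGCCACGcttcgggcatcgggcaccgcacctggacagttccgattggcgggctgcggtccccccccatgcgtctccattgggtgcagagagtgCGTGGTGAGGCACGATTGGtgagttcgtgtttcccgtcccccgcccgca
The Hsp90b1 stretch holds 2 matches, 1 on each strand.

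Other stress and growth machinery moved in part. Of 8 genes of metallothioneins and zinc transport 2 rose: the metal importer Slc39a14 (4.071-fold, from 4.27, 3.72 and 3.96 to 6.48, 5.54 and 6.00) and the exporter Slc30a10 (4.008-fold). Of 11 heat shock genes 1 rose, the co-chaperone Bag3 (2.838-fold), where 4.01% of all coding genes rose. Bag3 and Slc30a10 each passed only without 12 h replicate 2 among the fits that left out 1 compared array, and under normexp no gene of either list passed limma's test. Of 14 genes of the ATF4 and amino acid response, 3 rose and 0 fell: Chac1 (6.377-fold), which degrades glutathione, the stress regulator Nupr1 (5.284-fold) and Ddit3 (3.902-fold), which encodes CHOP. Chac1 did not pass within slide 2 (adjusted p = 0.0571). With 1 compared array left out 1 or 2 of the 14 rose. Asns and Trib3 differed by 1.14 and -0.69 and did not pass. Of 30 ribosome biogenesis genes 5 rose and 0 fell, with a median of 0.54. Heatr1, needed for ribosomal RNA transcription, rose 3.192-fold from 2.45, 2.71 and 2.53 to 4.62, 3.63 and 4.45, and Nip7 2.853-fold. With any 1 compared array left out 2 of the 30 rose, and under normexp 0. Without the 24 h replicate 2 array 12 of the 30 were higher, where 10.9% of coding genes were. None of the 31 proteasome subunit genes passed limma's test, and their differences ran from -0.33 to 0.54.

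**Figure D3:**
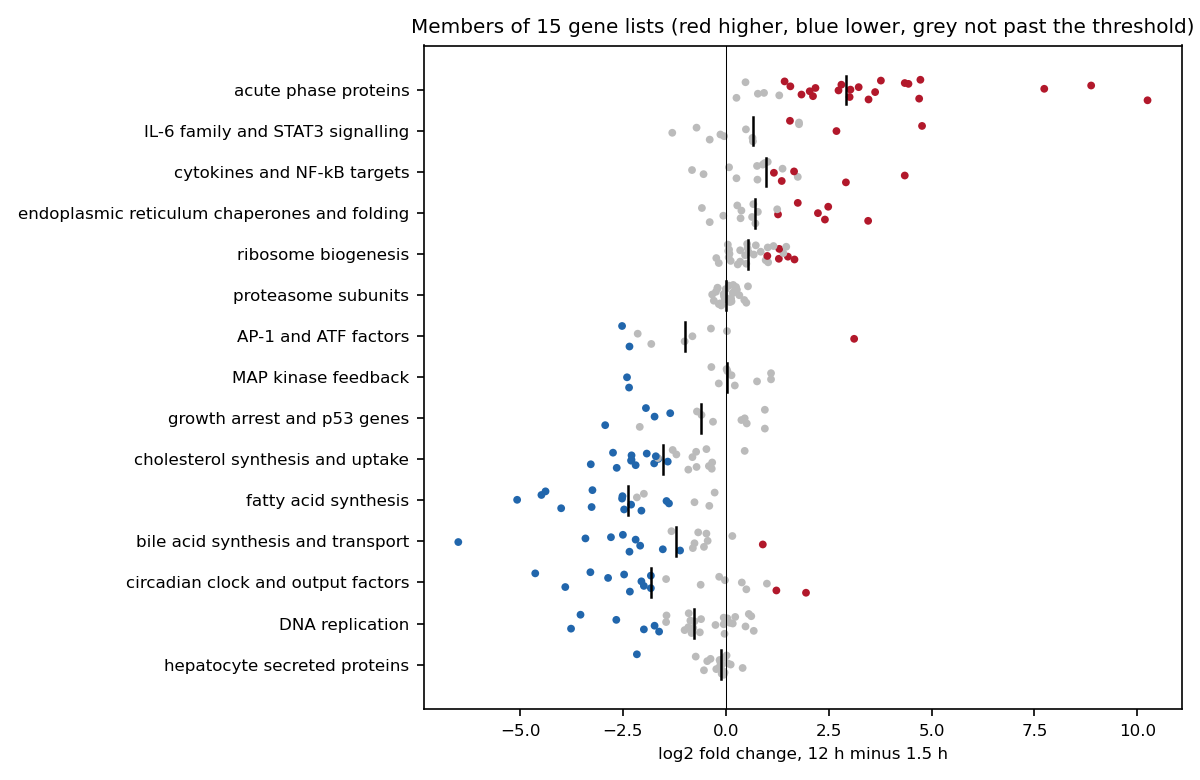
Each point is the log2 fold change (12 h minus 1.5 h, horizontal axis) of 1 member of 15 gene lists, red where higher and blue where lower past the threshold and grey where not, with a black line at the list's median. The acute phase median is 2.91 and the fatty acid synthesis median -2.38, while proteasome and hepatocyte secreted genes lie around 0.

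Lipid synthesis fell broadly. Of 18 fatty acid synthesis genes 13 fell and 0 rose, with a median of -2.38 (-2.34 within slide 2, where 14 were lower and 9.98% of coding genes were). Srebf1, the transcription factor that drives fatty acid synthesis genes, read 3.95, 3.84 and 3.48 at 1.5 h and -0.70, -0.81 and -0.37 at 12 h (20.87-fold lower). Pnpla3, a lipase of droplets, fell 22.38-fold, and Acly, which makes cytosolic acetyl-CoA, 16-fold from 5.62, 4.67 and 5.38 to 1.46, 0.63 and 1.59. Acss2, which makes it from acetate, fell 9.6-fold. Fasn fell 2.712-fold, and Scd1 differed by -0.27 and did not pass. Fasn lost its call when any 1 compared array was left out, where 10 of the 18 were lower in each fit. Normexp left 9 falls, with Pnpla3 (-1.24) and Fasn among those lost.

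Of 24 genes of cholesterol synthesis and uptake, 12 fell and 0 rose (median -1.53). Sc5d, a late sterol enzyme, read 5.49, 4.36 and 4.87 at 1.5 h and 2.12, 2.00 and 2.40 at 12 h (6.667-fold lower, limma adjusted p = 0.001556). Dhcr7, which acts after it, fell 6.282-fold, from 5.90, 5.27 and 5.50 to 2.79, 2.82 and 3.10. Insig1, a partner of the sterol sensor, fell 4.912-fold. Replicate 1 at 1.5 h, on slide 1, was the highest of its group in 2 of these 3 genes, and within slide 2 17 of the 24 were lower. Srebf2, the factor that drives this pathway, overlapped between the groups.

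Of 20 fatty acid oxidation genes 3 rose and 1 fell, and leaving out 1 compared array left 1 to 3 rises. Ppara is not among these, but 1 of its 3 probes, not the brightest, passed as lower (all 3 between -1.35 and -1.26). Plin2, which coats lipid droplets in hepatocytes, rose 7.116-fold, from -0.08, -0.27 and 0.26 to 2.57, 2.76 and 3.08. Angptl4, an inhibitor of lipoprotein lipase, rose 2.477-fold and the factor Creb3l3 2.175-fold, and Ppargc1a, a coactivator of oxidation and gluconeogenesis, fell 6.044-fold. Of 15 genes of glucose handling 5 fell and 0 rose. G6pc, the catalytic subunit that releases free glucose, read 6.75, 7.05 and 7.06 at 1.5 h and 1.36, 4.35 and 3.43 at 12 h (14.98-fold lower). Slc2a2, the hepatocyte glucose transporter, fell 12.98-fold, Ppp1r3b, a glycogen-targeting subunit, 7.91-fold, and Pfkfb1 4.899-fold. Ppp1r3c fell 3.15-fold and did not pass within slide 2 (adjusted p = 0.0962). Pck1 differed by -1.13 ± 0.40 and did not pass (limma adjusted p = 0.1266). In the urea cycle and amino acid list 1 of 18 fell, near the 6.23% of all coding genes. It was Prodh, proline dehydrogenase (4.089-fold), which lost its call without 1.5 h replicate 2 or 3 or 12 h replicate 2.

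Bile acid genes fell in the same interval, 9 of 18, with 1 rise. Cyp7a1, which catalyses the rate-limiting step from cholesterol to bile acids, read 2.88, 2.68 and 2.08 at 1.5 h and -3.74, -3.66 and -4.46 at 12 h, a 90.21-fold fall (log2 -6.50 ± 1.01, limma adjusted p = 0.003189). It was well above background on 2 of 3 arrays at 12 h. Klb, the co-receptor for FGF15, read 1.39, 1.06 and 1.45 at 1.5 h and -1.85, -2.02 and -2.45 at 12 h (10.6-fold lower). Nr0b2, the repressor SHP, fell 6.915-fold. Abcb11, the bile salt export pump, fell 5.058-fold, and Slc10a1, the main uptake transporter, 5.661-fold, the latter not passing within slide 2 (adjusted p = 0.0744). The 1 member to rise was Baat, which conjugates bile acids (1.869-fold). Leaving out 1 compared array left 4 to 7 falls, with the fewest without 1.5 h replicate 1, and kept the rise of Baat only without 12 h replicate 2. Normexp left 5 falls and 0 rises; there Cyp7a1 differed by -4.05 (limma adjusted p = 0.063) and Slc10a1 by -0.19.

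Of 25 genes of xenobiotic metabolism 6 fell and 3 rose. Sult1e1, the estrogen sulfotransferase, had the largest change of the list. It read -3.24, -4.37 and -3.51 at 1.5 h and 2.30, 1.91 and 3.34 at 12 h, a 74.72-fold rise (limma adjusted p = 0.000885). Fmo1, a flavin monooxygenase, fell 5.817-fold, Gsta3, a glutathione transferase, 4.104-fold, and Nr1i2, the pregnane X receptor, 2.977-fold. Sult1e1 and 3 to 5 falls kept their calls with 1 compared array left out. Among 19 hepatocyte secreted proteins Ttr, transthyretin, fell 4.454-fold and 18 did not pass. Of all coding genes 4.01% rose and 6.23% fell. Albumin (Alb) overlapped between groups at 8.17, 8.91 and 9.33 against 9.37, 9.05 and 7.69. Of 14 hepatocyte identity factors Foxa3 rose 2.493-fold, without passing within slide 2 (adjusted p = 0.0517) or in 4 of the 6 fits that left out a compared array, and Hnf4a differed by 0.07 ± 0.25.

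The circadian clock, a loop in which Clock and Arntl switch on their own repressors, stood at different levels at the 2 times. Of 19 measured members 10 fell and 2 rose, with a median of -1.82. Usp2, a clock-controlled deubiquitinase, read 3.82, 3.62 and 3.39 at 1.5 h and -0.90, -1.23 and -0.93 at 12 h (24.73-fold lower, limma adjusted p = 2.273e-05). Dbp, an output factor that binds D-boxes, read 0.03, 0.15 and -0.33 at 1.5 h and -4.42, -3.89 and -3.55 at 12 h (14.94-fold lower). Wee1, a clock-controlled kinase that holds cells before mitosis, fell 9.774-fold, Per3 7.264-fold, and Tef, a relative of Dbp, 5.54-fold. Arntl, which encodes BMAL1, went the other way, from -1.05, -0.40 and 0.29 to 1.74, 1.65 and 1.30 (3.865-fold higher), and Clock rose 2.341-fold. With 1 compared array left out 8 or 9 of the falls but 0 or 1 of the rises were called, and under normexp 5 and 0. Per1 read 3.66, 3.35 and 3.52 against 3.60, 3.39 and 3.47, and Nr1d1 overlapped between the groups. The E-box, CACGTG (the same on both strands), occurred in 4 of 20 windows of clock genes and in 7.15% of all windows. Of the 3 members holding it Tef fell, and Per1 and Cry1, at -0.02 and 0.5, did not pass. The D-box, TTATGTAA on either strand, was present in 0.938% of all windows, and among clock members with a window in that of Per3, which holds 2 copies, in capitals.
Per3 (chr4:151044786-151044900, minus strand): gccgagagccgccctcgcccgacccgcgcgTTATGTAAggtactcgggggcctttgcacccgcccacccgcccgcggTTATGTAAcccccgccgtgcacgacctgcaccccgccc

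Among all coding genes 4.01% were higher at 12 h and 6.23% lower, and the list of G1 genes lay close to these shares. Of 20 G1 cyclins, kinases and inhibitors 1 rose, E2f8 (2.205-fold), a repressor of the E2F family, and 2 fell, E2f2 (3.411-fold, with the opposite sign under normexp) and Ccnd2 (2.082-fold). E2f8 lost its call when any 1 compared array was left out and Ccnd2 in 4 of these 6 fits, and none of the 20 passed under normexp. Ccnd1, cyclin D1, overlapped between the groups (1.64, 1.28 and 0.99 against 0.72, 0.64 and 1.12). The inhibitor Cdkn1a, p21, read -1.0, -1.04 and -0.44 at 1.5 h and 1.51, 0.06 and 0.97 at 12 h and missed the threshold on its brightest probe (1.67 ± 0.47, limma adjusted p = 0.05236). Another Cdkn1a probe was higher by 2.05 and passed.

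Among 29 DNA replication genes 6 fell and 0 rose, with a median of -0.76. Leaving out 1 compared array left 5 or 6 falls, and normexp 2. Mcm10, a replication initiation factor, read 4.18, 4.47 and 3.87 at 1.5 h and 0.19, 0.83 and 0.23 at 12 h (13.52-fold lower, limma adjusted p = 0.000854). Tk1, thymidine kinase, read 2.11, 2.36 and 2.63 against -0.76, -1.46 and -1.27 (11.57-fold lower). Pole, the catalytic subunit of DNA polymerase epsilon, fell 6.329-fold, Lig1, DNA ligase, 3.984-fold, and Mcm6, of the replicative helicase, 3.316-fold. Pcna overlapped between the groups, as did the mitotic kinase Cdk1. In the mitosis list 2 of 23 fell, Cenpa (3.149-fold) and Birc5 (3.028-fold), close to the 6.23% of all coding genes that fell. Birc5 passed only without 1.5 h replicate 2 among the fits that left out a compared array, and neither passed under normexp (-0.03 and -0.25).

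The coding genes at both ends of the comparison lay partly outside these lists. Bmper, a modulator of BMP signals, read -4.31, -4.33 and -4.11 at 1.5 h and 1.57, 1.13 and 1.07 at 12 h (45.42-fold). Slc13a5, a citrate transporter of hepatocytes, rose 44.29-fold from -3.25, -3.21 and -2.88 to 2.88, 1.93 and 2.26. Slc10a6, a transporter of sulfated steroids, rose 36.87-fold. Some probes were well above background on no array of 1 group, and for these only a bound can be given. It sets the bright group's mean against the lowest signal well above background on the dim arrays. At 12 h, Tm4sf20, a transmembrane 4 family protein, was at least 217-fold higher, Olfr854, an olfactory receptor gene, at least 21.63-fold, Vwa2 at least 9.587-fold and Sprr2b at least 8.259-fold. Vwa2 lost its call when any 1 compared array was left out. Under normexp Tm4sf20 was higher by 4.35 on the log2 scale (limma adjusted p = 0.00229), and Olfr854, Vwa2 and Sprr2b, at 1.96, 1.62 and 1.57, did not pass.

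Ppp1r3g, a glycogen-targeting subunit of protein phosphatase 1, had the lowest fold change of all coding probes. It read 2.99, 2.54 and 2.58 at 1.5 h and -3.85, -3.78 and -4.29 at 12 h, a 102.3-fold fall (limma adjusted p = 0.0003518), and its mean at 0 h was -0.35. Keg1 fell 100.3-fold, from 3.17, 3.41 and 3.25 to -2.96, -3.21 and -3.94. Hsd3b5, a male-biased steroid dehydrogenase of liver, fell 44.13-fold, and the potassium channel gene Kcnk5 32.05-fold. Tmem25 fell 34.01-fold with a wide spread at 12 h, at -3.70, -1.57 and -6.34. Bounds were at least 22.35-fold lower for Ell3, at least 12.16-fold for Mpp4, at least 6.29-fold for Gm11992 and at least 5.104-fold for Hsd3b6. With normexp background correction none of these 4 passed limma's test: Ell3 differed by -1.09 and Mpp4 by -0.56, and Gm11992 and Hsd3b6 had the opposite sign. Hsd3b6 also lost its call without 1.5 h replicate 1 and without 12 h replicate 2.

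**Figure D4:**
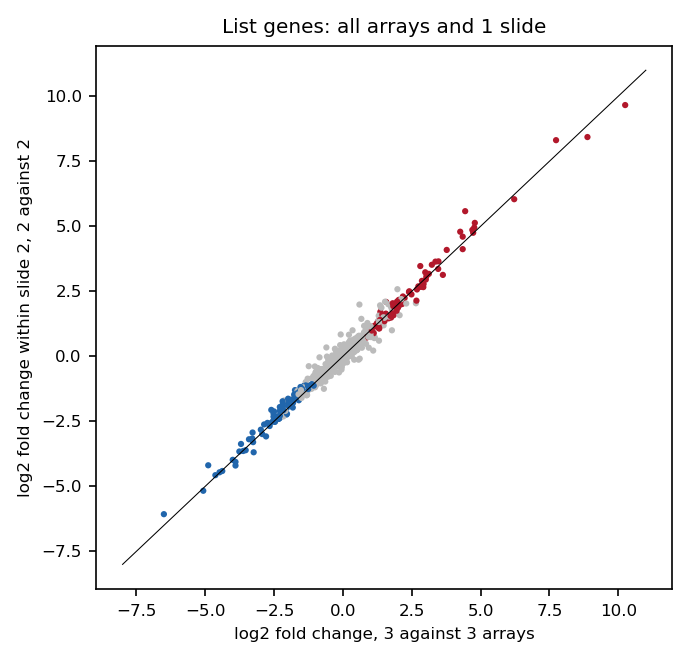
Log2 fold changes of list genes over all 6 arrays (horizontal axis) are plotted against those within slide 2 alone, 2 arrays against 2 (vertical axis), red and blue where past the threshold over all arrays; the line marks equal values. A2m, at 10.25 and 9.66, and Cyp7a1, at -6.50 and -6.07, lie near the ends of a narrow band; the axes share the slide 2 arrays and are not independent.

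Noncoding transcripts, for which the array was built, passed in 533 of 11274 cases (4.73%) and coding ones in 2063 of 19894 (10.4%). In 1 band of signal, between 0 and 2 on the log2 scale, 9.72% of noncoding and 13.5% of coding probes passed. The difference between the shares was not tested. Of the 533, 234 were higher at 12 h (2.08%) and 299 lower (2.65%), 43.9% higher. The balance turned within slide 2, with 639 higher (5.67%) and 426 lower (3.78%), 60% higher, and without the 24 h replicate 2 array, with 872 higher (7.73%) and 605 lower (5.37%), 59% higher. The median log2 fold change was 0.23 for noncoding and 0.10 for coding probes. Leaving out compared arrays gave 229 to 346 noncoding probes: 229, 255 and 288 without replicates 1, 2 and 3 of 1.5 h, and 248, 346 and 268 without those of 12 h.

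Most of these transcripts are known by cDNA or browser identifiers alone. AK008001 read 0.12, -0.32 and 0.18 at 1.5 h and 5.72, 5.80 and 5.90 at 12 h, a 56.18-fold rise (log2 5.81 ± 0.67, limma adjusted p = 0.0007351). Both groups were tight. At 24 h it read 0.29, 3.65 and 1.03 (mean 1.66), highest on the replicate 2 array, whose intensity stood apart. The transcript uc009oon rose 38.47-fold, well above background on 1 of 3 arrays at 1.5 h. uc009kuy rose 19.32-fold, uc007kjl 16.29-fold and uc008mgp 12.53-fold, the last from -3.56, -2.91 and -2.18 to 0.99, 0.83 and 0.48. NR_003640 was at least 19.13-fold and uc007tpd at least 3.515-fold higher at 12 h, and neither passed under normexp (2.01 and 1.11 on the log2 scale). uc007tpd also lost its call without 1.5 h replicate 2 or 3 or 12 h replicate 3.

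In the other direction, AK019073 read 0.51, 0.33 and 0.53 at 1.5 h and -8.12, -4.28 and -6.22 at 12 h, where it was well above background on 1 of 3 arrays, so the size of the fall rests on signals near background. The difference was -6.66 ± 0.79 on the log2 scale (limma adjusted p = 0.000854), and -2.40 under normexp (0.11). AK018558, above background on 2 of 3 arrays at 12 h, differed by -5.99 ± 0.87 (limma adjusted p = 0.002266), and by -3.29 under normexp (0.0957). AK047204 had tight groups, 3.94, 3.93 and 3.77 against -0.67, -1.06 and -0.93, and fell 27.19-fold (limma adjusted p = 2.749e-05). uc007ana and uc009nzu fell 20.1-fold and 20.03-fold, and at 24 h their means were 0.01 and 2.54, against -3.92 and -1.0 at 12 h. AK006955 was at least 23.46-fold lower and uc007zty at least 6.737-fold. Under normexp AK006955 differed by -1.0 and did not pass, and uc007zty had the opposite sign.

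**Figure D5:**
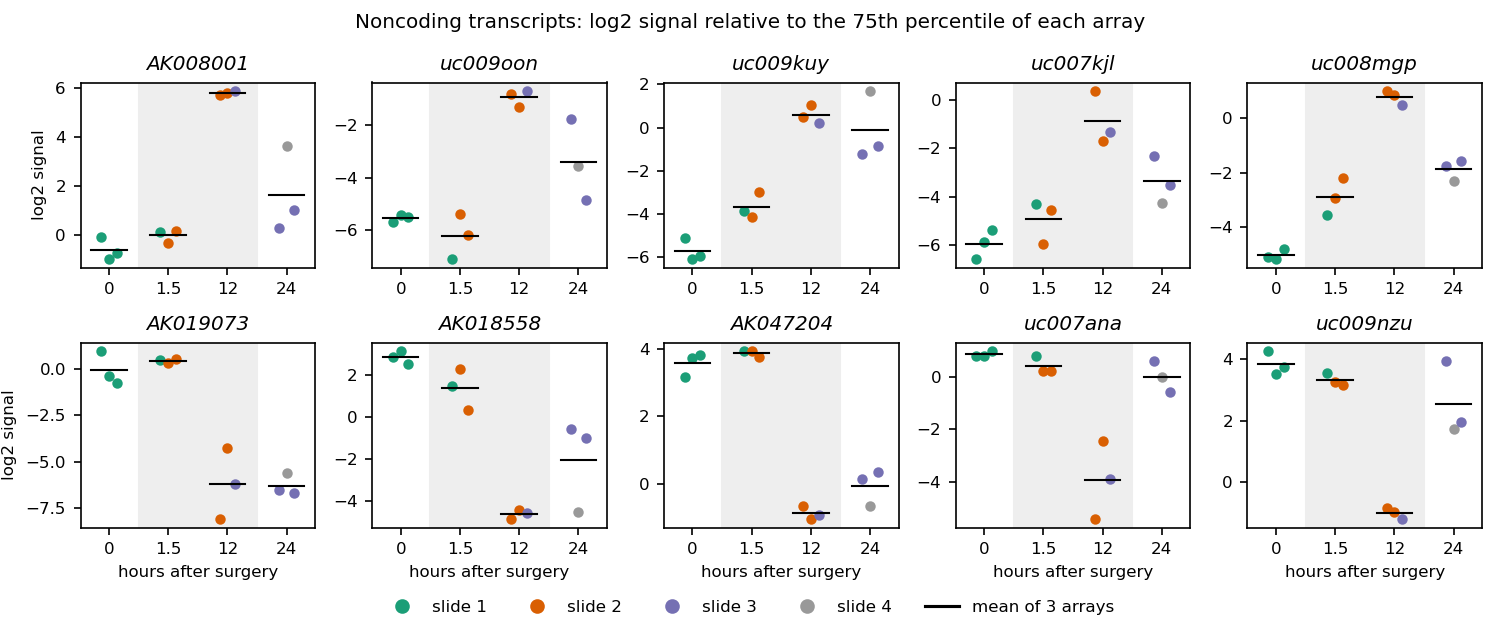
Log2 signal relative to the array's 75th percentile (vertical axis) against hours after surgery for 10 noncoding transcripts, 1 point per array coloured by slide, a line at the mean of 3 arrays and the compared groups in the grey band. The upper row holds the 5 largest rises and the lower row the 5 largest falls among probes well above background on at least 1 array of each group, so probes with only a bound are left out; uc007ana and uc009nzu are higher again at 24 h.

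By source, 107 of 5947 AK cDNAs were higher and 126 lower (3.92% passed), where 4.73% of all noncoding probes passed. Of 4124 UCSC transcripts 94 were higher and 153 lower (5.99%), and of 255 RefSeq noncoding RNAs 12 and 7 (7.45%). Among 572 probes in ultraconserved elements 7 were higher and 0 lower (1.22%), where 2.08% of all noncoding probes were higher and 2.65% lower. These probes are dim, with a median log2 signal of -4.01 at 1.5 h. Of noncoding probes with a mean signal under -4, 1.76% passed. Of 13 measured well-known long noncoding RNAs 2 rose, both hosts of small nucleolar RNAs. Snhg1 read -0.98, -1.41 and -0.79 at 1.5 h and 0.49, 0.41 and 1.11 at 12 h (3.318-fold, limma adjusted p = 0.02103), and Snhg6 rose 2.076-fold. With 1 compared array left out 0 or 1 of the 13 rose. The host gene Snhg3 differed by 1.31 ± 0.44 and did not pass (limma adjusted p = 0.108; 0.01361 within slide 2). Malat1 and Neat1, which reside in nuclear speckles and paraspeckles, differed by -0.46 ± 0.46 and 1.53 ± 0.76 and did not pass.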

How the data were processed

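Per the labels, total RNA of 6 livers was labelled with Cy3. Agilent Feature Extraction 10.5.1.1, per the submitters' processing notes, gave the deposited spot intensity, background-corrected by that software. The authors' deposited table holds log2 values of part of the probes with unstated normalization, and served as an alternative. Outlier spots and controls were dropped, spots of a probe averaged, and log2 intensity centred on each array's 75th percentile. Probes were kept where well above background on at least 3 of 12 arrays. Names come from RefSeq accessions (21963 of 22522 coding and 253 of 14724 noncoding probes matched). Probe coordinates are not given; the array's grid is of another build than the promoter table.

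Limma 3.58.1 (R 4.3.3) fitted 1 mean per time point to all 12 arrays, with two-sided moderated tests and Benjamini-Hochberg adjustment over 31168 probes (threshold 0.05). Errors are standard errors. They and the p-values reflect only the scatter of these samples, which may be partly technical, pooled over the 4 time points; the number of arrays limits precision. The fit was tested on data simulated with independent noise on each array. That test does not cover deviations shared by the arrays of a slide. "Fold" is 2 to the power of the log2 difference. A bound ("at least") was taken for a probe well above background on no array of a group, on the main values.

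Members and lists were chosen with earlier results of these data known. Named were the 8 coding and 5 noncoding probes at each end, 4 and 2 bounds per side, and up to 5 passing members per list (1 probe per gene, the brightest). Outside this rule, chosen after their values were seen, are other acute phase genes (Saa1, Saa2, Saa3, Saa4, Fga, Fgb, Fgg, Hp, Hamp, Itih4, Apcs), Hsp90b1, Fasn, Baat, Arntl and Clock, and all named members that did not pass. Some genes that the rule names are not reported here. Alternatives are given in the closing section.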

Additional observations from a re-analysis of the deposited data

How the results depend on the processing

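All alternatives were planned. Against 2596 probes (533 noncoding), the count was 495 (67) with normexp, 4694 (1064) with slide as a fixed block, 5585 (1230) with slide as a random block, 4695 (1065) within slide 2 and 6265 (1477) without 24 h replicate 2. With only the 6 arrays compared it was 3868 (890). Leaving out each compared array in turn, with 24 h replicate 2 kept, gave 1251 to 1783 (229 to 346 noncoding). Quantile normalization, centring on coding probes, the authors' values, both other filters, 1 probe per gene, trended robust moderation and a 2-fold minimum stayed within 1.5 times. Of the called probes, 493 of 2596 passed the same way under normexp and 2444 kept their direction. Under normexp all probes together had a median difference of 0.49, against 0.15. It used the median spot intensity, and the cause of its lower count was not tested. Among 188 called genes named or in a list, 79 kept their call under every one of the 21 settings that gave them a value, 131 to 149 kept it with 1 compared array left out and 89 under normexp, and 5 reversed, each under normexp, among them Gm11992 (0.16), Hsd3b6 (0.28), uc007zty (0.02) and E2f2 (0.21). With the replicate block 1916 probes passed (400 noncoding). Same-numbered samples deviated together with correlations of -0.281, 0.208 and -0.276, so the numbers do not pair them. Signal over background limits dim probes most: 3.58% of coding probes under -4 passed against 14.8% of those over 2.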
